A study of Mus musculus with 6 samples.

Results

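The genes described here are 9 large protein-coding genes that lie at common fragile sites: Fhit, Wwox, Macrod2, Immp2l, Naaladl2, Ctnna2, Ctnna3, Dpyd and Exoc4. They were taken by name, by a rule that uses no measured value but was written with earlier results of these data known, from 21755 protein-coding genes of chromosomes 1 to 19 and X (GENCODE vM21, mm10). DNA ends were mapped by BLISS, an assay that ligates adaptors to the ends of double-strand breaks in fixed nuclei and reads outward from them. The 6 libraries fall into the groups Step2, Step1 and Con, with 2 libraries each. All 6, Con included, are labelled as sorted neurons of the forebrain of CK-p25 mice with 2 weeks of induction, in which doxycycline was taken out of the diet. In CK-p25 mice a doxycycline-regulated transgene expresses p25, an activator of the kinase Cdk5, in forebrain neurons. The labels do not say what sets Step2, Step1 and Con apart, nor whether the replicates came from separate animals, so p-values cover no more than the spread among these libraries, and that spread may be technical. The assay reads DNA and not RNA, so the labelled cell type was not checked against marker genes.

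Common fragile sites are chromosome regions that show gaps and breaks at mitosis when DNA replication is slowed. Many of them lie over very large genes that replicate late, and several of those genes are often deleted in tumours. They were defined mostly in dividing human cells, whereas the libraries here came from neurons, which no longer divide.

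The libraries held 1526487 and 1480461 reads in Step2, 2403238 and 2043098 in Step1, and 2300995 and 2273508 in Con. The 5′ end of a read stood for the break end it came from. The median read was 47 bases long in Step2, 48 in Step1 and 49 in Con, so read length differed with the group. Levels are given as density, the share of a library's reads in a feature divided by the share of the genome's sequenced bases that the feature takes up, so that the genome mean is 1. Density tells where ends lay, and says nothing of the number of breaks per cell.

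Together the 9 genes span 11.1 Mb, or 0.432% of the genome, and held close to that share of the break ends in every library. The share was 0.430% and 0.435% in the Step2 libraries, 0.444% and 0.436% in the Step1 libraries, and 0.459% and 0.451% in the Con libraries. It averaged 0.432% ± 0.00391 in Step2, 0.440% ± 0.00598 in Step1 and 0.455% ± 0.00569 in Con (SD, n = 2 each). With all reads, both Step2 libraries and both Step1 libraries lay below both Con libraries, and the nearest Step2 and Step1 libraries were level to within rounding. Counting each position and strand once gave 0.430% ± 0.00782 in Step2, 0.436% ± 0.00764 in Step1 and 0.451% ± 0.00790 in Con. Step2 and Step1 then overlapped, with 0.424% and 0.435% in Step2 and 0.442% and 0.431% in Step1. On the first of 2 sequencing runs alone the groups overlapped as well, with 0.438% and 0.457% in Step2, 0.458% and 0.437% in Step1, and 0.471% and 0.457% in Con. On the second run alone they did not overlap. It gave 0.423% and 0.413% in Step2, 0.435% and 0.434% in Step1, and 0.450% and 0.446% in Con.

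The first 4 genes encode enzymes. Fhit encodes a hydrolase of the histidine triad family that cleaves diadenosine triphosphate, and it is a tumour suppressor. It lies on chromosome 14 from 9550092 to 11162035 on the minus strand. Its density was 1.01 and 1.01 in Step2, 1.02 and 1.07 in Step1, and 1.07 and 1.07 in Con. The Step2 libraries were lower than both Con libraries, and Step1 overlapped Con.

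Macrod2 encodes an enzyme that removes ADP-ribose from proteins. It is the longest of the 9 at 1998 kb and lies on chromosome 2 from 140395309 to 142392966 on the plus strand. Its density was 0.954 and 1.07 in Step2, 1.04 and 1.03 in Step1, and 1.07 and 1.07 in Con. The Step2 libraries differed from each other by more than Step1 differed from Con.

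Dpyd encodes dihydropyrimidine dehydrogenase, which starts the breakdown of uracil and thymine. It lies on chromosome 3 from 118562129 to 119432924 on the plus strand. Its density was 1.06 and 1.02 in Step2, 1.08 and 1.08 in Step1, and 1.15 and 1.09 in Con. All Step2 and Step1 libraries lay below both Con libraries.

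Wwox encodes an oxidoreductase with WW domains and is, like Fhit, a tumour suppressor. It lies on chromosome 8 from 114439655 to 115352708 on the plus strand, and at 45.8% GC it was the most GC-rich of the 9, against 41.8% for the genome. Its density was 0.909 and 0.894 in Step2, 0.992 and 0.912 in Step1, and 0.914 and 0.920 in Con. With all reads it stayed below the genome mean in all 6 libraries; with 1 read per position and strand, the first Step1 library had 1.02.

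Immp2l and Naaladl2 encode a peptidase and a relative of peptidases. Immp2l, a catalytic subunit of the mitochondrial inner membrane peptidase, lies on chromosome 12 from 41024090 to 41955588 on the plus strand. Its density was 0.971 and 0.945 in Step2, 1.03 and 0.905 in Step1, and 1.06 and 0.948 in Con, so that the libraries of 1 group were further apart than the groups. Naaladl2, named for its likeness to a glutamate carboxypeptidase, lies on chromosome 3 from 23798102 to 25144261 on the minus strand. Its density was 0.917 and 0.944 in Step2, 0.978 and 0.963 in Step1, and 1.05 and 1.04 in Con. Naaladl2 was below 1 in all 4 Step2 and Step1 libraries and above 1 in both Con libraries.

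Ctnna2 and Ctnna3 encode alpha-catenins, which link cadherins to actin at cell contacts; the first is the form of neurons. Ctnna2 lies on chromosome 6 from 76881637 to 77979699 on the minus strand. Its density was 1.12 and 1.10 in Step2, 1.06 and 1.04 in Step1, and 1.10 and 1.13 in Con, with Step1 below both other groups. Ctnna3 lies on chromosome 10 from 63430098 to 65003667 on the plus strand. Its density was 1.03 and 1.02 in Step2, 1.01 and 1.00 in Step1, and 1.04 and 1.04 in Con, a span of under 0.05 over all 6 libraries.

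Exoc4, a subunit of the exocyst, which tethers secretory vesicles to the cell membrane, is the shortest of the 9 at 725 kb. It lies on chromosome 6 from 33249085 to 33973979 on the plus strand. Its density was 0.999 and 0.989 in Step2, 1.05 and 1.02 in Step1, and 1.12 and 1.02 in Con. Both Step2 libraries were the lowest, and Step1 overlapped Con.

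**Figure D1:**
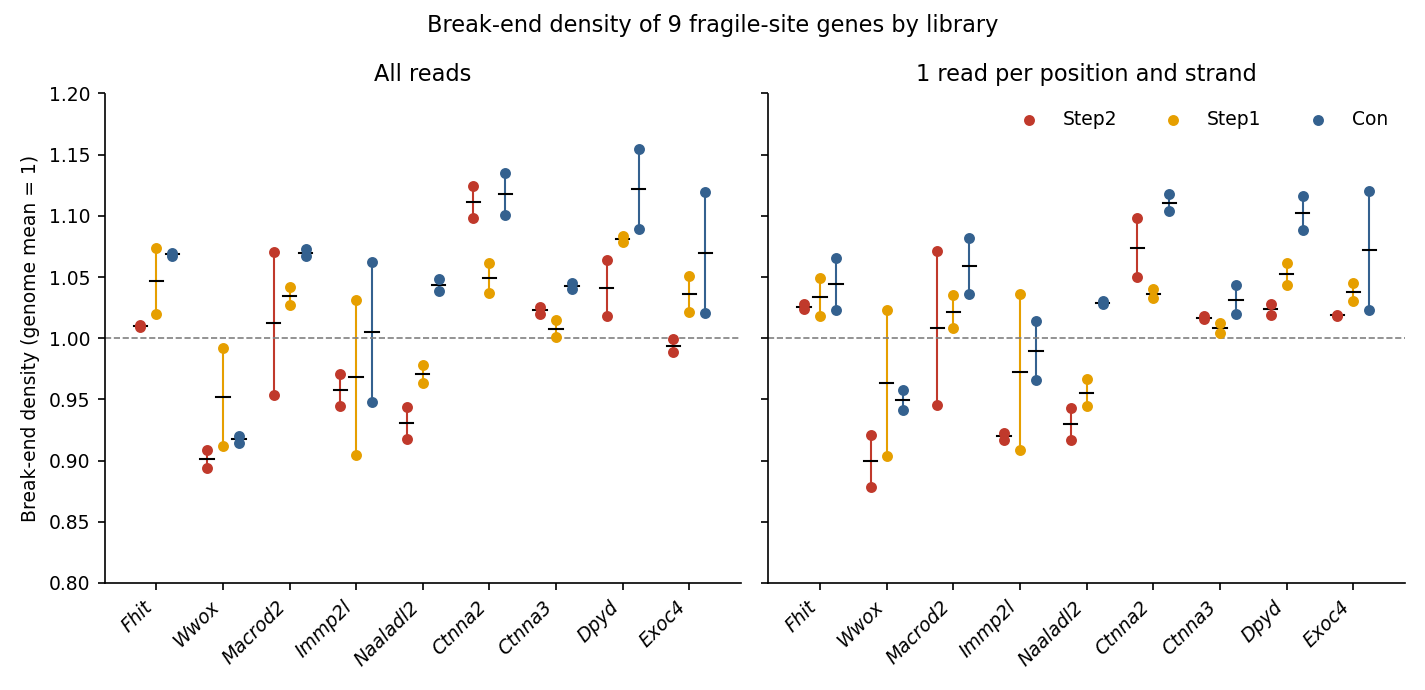
Break-end density (vertical axis, genome mean 1) of each of the 9 genes in every library, for all reads (left) and 1 read per position and strand (right), with Step2, Step1 and Con from left to right within a gene; points are libraries, short bars group means and vertical lines the range. With all reads, values run from 0.894 to 1.15. Wwox lies below 1 in all 6 libraries, and Fhit, Ctnna2, Ctnna3 and Dpyd lie above 1 in all 6.

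In Step2 against Con, the 9 genes had slightly lower values and none was called. Called means an adjusted p under 0.05 in limma with voom weights, fitted on 13811 gene bodies with Benjamini-Hochberg adjustment over all of them. The 9 log2 fold changes had a median of -0.08 and all were below 0, against a median of -0.04 and 54% below 0 over all genes tested. By this rule 0 of 9 were called, against 0.0941% of all genes. Naaladl2 and Macrod2 had an unadjusted p under 0.05 in limma, as had 7.77% of all genes. For Naaladl2 the value was -0.17 ± 0.05 (SE, limma, adjusted p = 0.385), and for Macrod2 it was -0.08 ± 0.04 (SE, limma, adjusted p = 0.628). In 6 of 9 genes both Step2 libraries lay below both Con libraries, against 21.7% of all genes and 42.3% of the 567 genes over 300 kb. None was higher without overlap, against 15.2% of all genes. The 95% intervals of the 9 values reached from -0.27 to 0.12 at their outer ends.

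In Step1 against Con, the values were again small and none was called. Step2 against Con and Step1 against Con share their 2 Con libraries. The median log2 fold change was -0.05, with 8 of 9 below 0, against -0.04 and 54.7% below 0 over all genes. The count of calls was 0 of 9, against 0.123% of all genes. Naaladl2 had the lowest value, -0.10 ± 0.04 (SE, limma, adjusted p = 0.65), and was the only one with an unadjusted p under 0.05, which 7.08% of all genes had. Wwox had the only value above 0, at 0.06 ± 0.06 (SE, limma, adjusted p = 0.879), and its libraries overlapped. The libraries of 5 genes (Ctnna2, Ctnna3, Dpyd, Macrod2 and Naaladl2) were lower in Step1 without overlap, against 21.3% of all genes and 40.0% of those over 300 kb. None was higher without overlap, against 15.4% of all genes. The 95% intervals reached from -0.19 to 0.18.

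In Step2 against Step1, 0 of 9 genes were called, against 0.0434% of all genes, and none had an unadjusted p under 0.05 in limma, against 3.42% of all genes. The median was -0.05, with 7 of 9 below 0, against 50.2% below 0 over all genes. Ctnna2 had the highest value, 0.08 ± 0.06, and Wwox the lowest, -0.08 ± 0.07 (SE, limma, adjusted p = 0.999 for both). The libraries were lower in Step2 without overlap for 5 genes, against 17.9% of all genes, and higher for Ctnna2 and Ctnna3, against 16.1%. Of the genes over 300 kb, 20.8% were lower and 12.3% higher without overlap. The 95% intervals reached from -0.23 to 0.20. The limma-trend fit without voom weights also called 0 of 9 in each of the 3 comparisons.

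**Figure D2:**
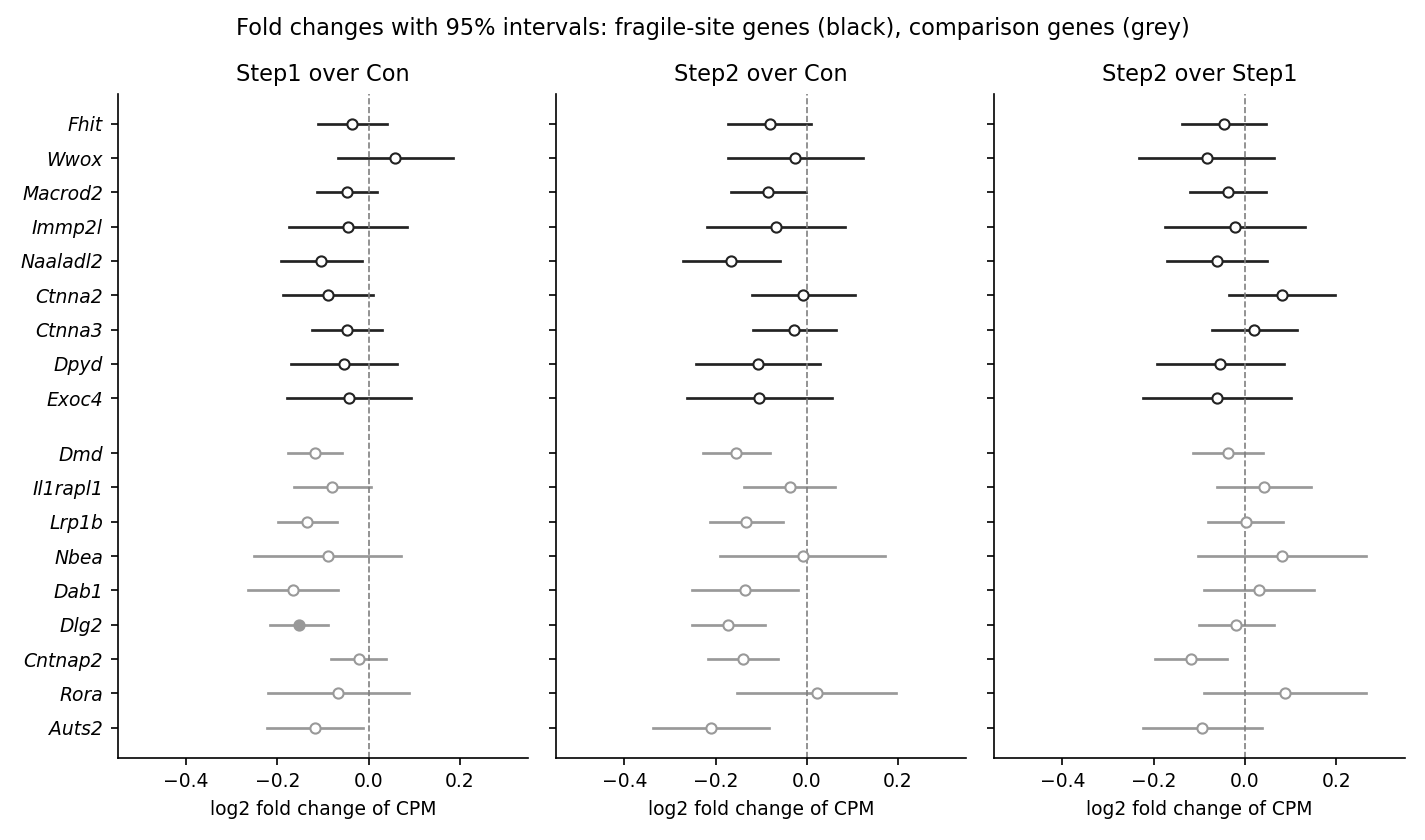
Log2 fold changes of the 9 genes (black) and of further large fragile-site genes (grey) with 95% intervals from limma (bars), for each of the 3 comparisons; a filled point is a called gene. All 9 black points of Step2 over Con lie below 0, the lowest being Naaladl2 at -0.17, and the filled point is Dlg2 in Step1 over Con.

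The lower values were shared by other long genes. Over the 567 genes longer than 300 kb, the median log2 fold change was -0.08 in Step2 against Con, with 74.4% below 0, and -0.07 in Step1 against Con, with 73.7% below 0. With median-of-ratios scaling the median of the 9 was -0.03 in Step2 against Con, with 6 below 0, and -0.01 in Step1 against Con, with 7 below 0. Further large genes at human common fragile sites (Dmd, Il1rapl1, Lrp1b, Nbea, Dab1, Dlg2, Cntnap2, Rora and Auts2) had medians of -0.14 in Step2 against Con and -0.12 in Step1 against Con. Of these, 1 was called: Dlg2, which encodes a scaffold protein of excitatory synapses, was lower in Step1 than in Con by -0.15 ± 0.03 on the log2 scale (SE, limma, adjusted p = 0.0245). Dlg2 was called under 6 of 18 alternatives, with limma adjusted p from 0.00106 to 0.983. It was not called with median-of-ratios scaling (limma, adjusted p = 0.264), after removal of a smooth trend on GC content (0.397), or without the first Step1 (0.983), second Con (0.171), first Step2 (0.0917) or second Step2 library (0.0974). They ran from -0.21 for Auts2 to 0.02 for Rora in Step2 against Con, and from -0.17 for Dab1 to -0.02 for Cntnap2 in Step1 against Con. In Step2 against Step1 they ran from -0.12 for Cntnap2 to 0.09 for Rora.

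Along the genes, bin density varied about as widely as in gene bins in general. The 9 genes hold 105 full 100-kb bins without large sequence gaps. With 1 read counted per position and strand over all 6 libraries, bin density had a median of 1.01 and ran from 0.790 to 1.24, and 61 bins were above 1. Over the 5339 such bins of all genes of at least 100 kb the median was also 1.01, and the 5th to 95th percentiles were 0.852 to 1.17, against 0.861 to 1.18 in the 9 genes. The densest bin lay in Fhit, 700 to 800 kb from its start, at 1.24 (95% interval 1.13 to 1.36). The sparsest Fhit bin, 1000 to 1100 kb from the start, had 0.863 (0.771 to 0.962). In Ctnna3 the bins ran from 0.790 (0.702 to 0.887) to 1.21 (1.10 to 1.32), the widest ratio at 1.53. Ctnna2 was the most even, with a ratio of 1.13 between its densest and its sparsest bin. Macrod2 ran from 0.861 to 1.19, Naaladl2 from 0.815 to 1.09 and Dpyd from 0.929 to 1.19. Exoc4 ran from 0.905 to 1.12, Wwox from 0.838 to 1.00 and Immp2l from 0.875 to 1.02. The densest bin was the one at the gene start in Wwox and Exoc4, and lay further in for the other 7. Intervals are exact Poisson ones that cover counting error only, and the bins were picked as extremes.

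**Figure D3:**
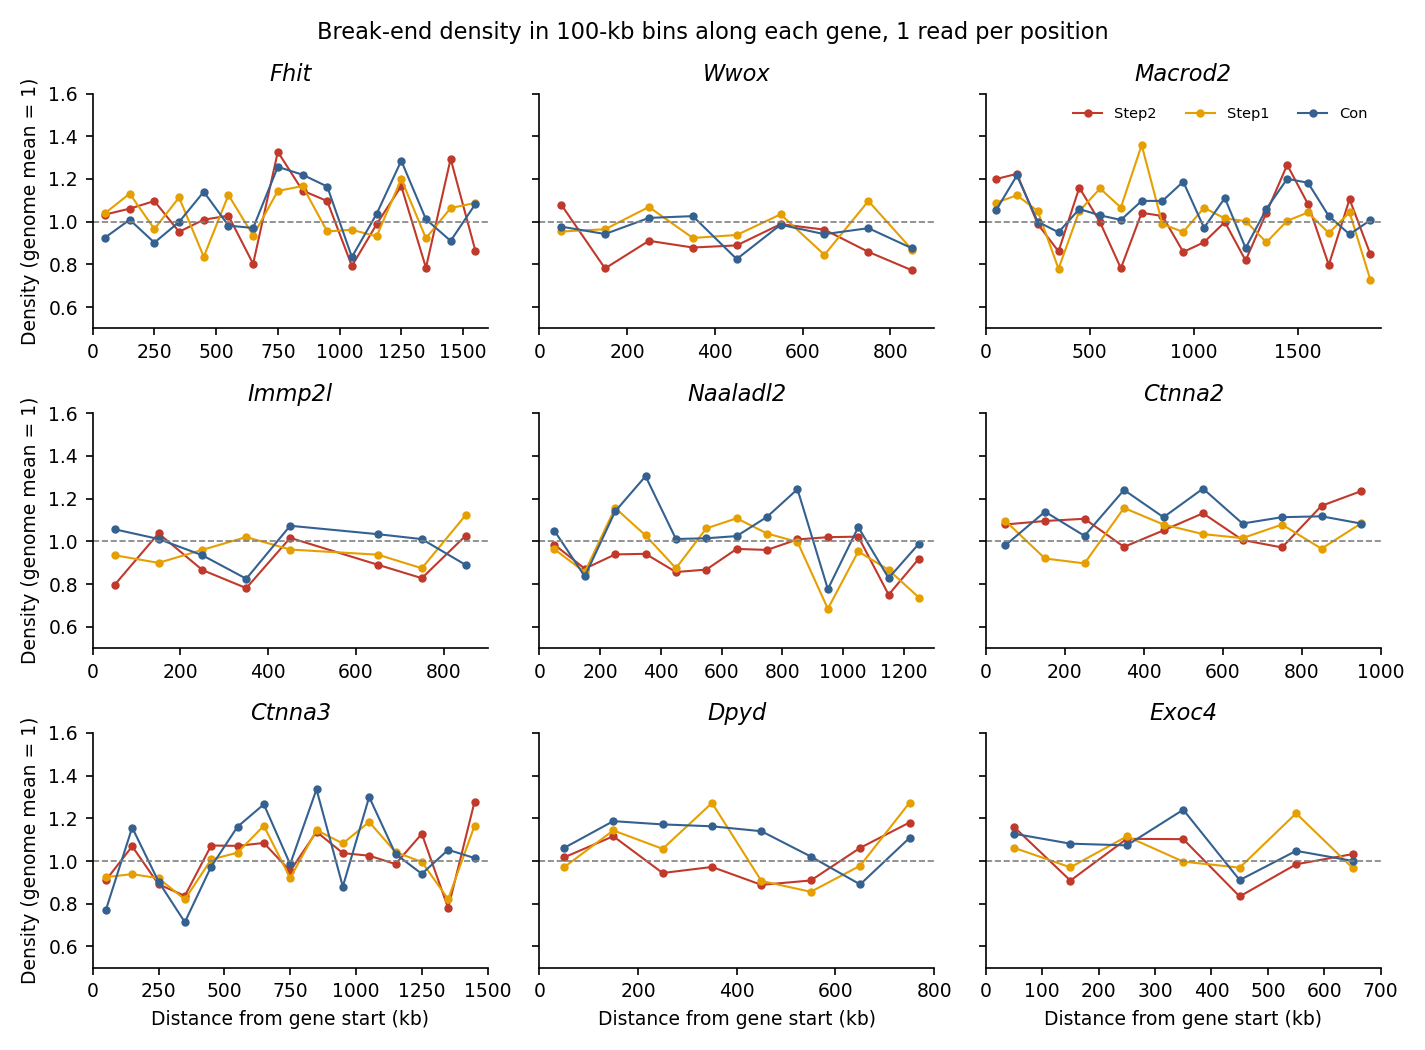
Break-end density (1 read per position and strand, genome mean 1) in 100-kb bins along each of the 9 genes, drawn by distance from the gene start in kb; each point is the mean of the 2 libraries of Step2, Step1 or Con. The lines of the groups cross along every gene, and the points lie between 0.684 (Step1, Naaladl2) and 1.36 (Step1, Macrod2).

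No bin of the 9 genes was called between groups. Of their 115 bins, 114 were among the 7397 gene bins fitted. In Step2 against Con, 0 of 114 were called by limma, against 0.0541% of all bins, and 5 had an unadjusted p under 0.05, against 7.92%. Step2 was lower without overlap in 27 bins, against 24.6% of all bins, and higher in 14, against 12.6%. The value was below 0 in 73 bins, against 59.5% of all bins. In Step1 against Con, 0 of 114 were called, against 0.0406%, and 6 had an unadjusted p under 0.05, against 6.95%. Step1 was lower without overlap in 22 bins, against 23.4%, and higher in 16, against 13.8%. The value was below 0 in 61 bins, against 58.8%. In Step2 against Step1, 0 of 114 were called, against 0% of all bins, and 1 had an unadjusted p under 0.05, against 3.91%. Step2 was lower without overlap in 25 bins, against 18.6%, and higher in 15, against 15.4%. The value was below 0 in 58 bins, against 52.1%. By overlap of libraries, the 114 bins thus moved about as often as gene bins in general. An unadjusted p under 0.05 in limma was less frequent among them in each comparison. The smallest p in Step2 against Con belonged to a Ctnna3 bin 1400 to 1500 kb from the start, at 64830098 to 64930097. It held 78 and 78 reads in Step2, 111 and 89 in Step1, and 71 and 87 in Con, and was 0.60 ± 0.21 higher in Step2 than in Con (log2, SE, limma, adjusted p = 0.437). In Step2 against Step1 it belonged to a Ctnna2 bin 200 to 300 kb from the start, with 0.44 ± 0.22 (log2, SE, limma, adjusted p = 1.00).

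Some bins rested on 1 library. The smallest p in Step1 against Con belonged to a Fhit bin 400 to 500 kb from the start, at 10662036 to 10762035, with -0.62 ± 0.21 (log2, SE, limma, adjusted p = 0.459). It held 53 and 56 reads in Step2, 88 and 51 in Step1, and 87 and 136 in Con. With 1 read per position and strand it held 45 and 49 in Step2, 75 and 47 in Step1, and 71 and 78 in Con. Without the first Con library, this Fhit bin was called in Step1 against Con at -0.94 (limma, adjusted p = 0.00299), a fit that takes the spread of the lone Con library from Step2 and Step1. Under the same assumption a Macrod2 bin at 140495309 to 140595308 was called too, at -0.88 in Step1 against Con (limma, adjusted p = 0.001) and at -0.69 in Step2 against Con (limma, adjusted p = 0.0416). That Macrod2 bin held 58 and 87 reads in Step2, 92 and 91 in Step1, and 92 and 174 in Con. With each position and strand counted once it held 54 and 60 in Step2, 83 and 78 in Step1, and 76 and 83 in Con, so the excess of the second Con library lay in repeated reads. Of those 174 reads, 59 began at 1 position, the strongest of Macrod2, which is printed below. Over the 18 alternatives the smallest adjusted p of the 114 bins ran from 0.001 to 0.993 in Step1 against Con and from 0.0416 to 0.914 in Step2 against Con (limma).

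Over the 9 genes as a whole, most reads that repeated a position were spread over many positions, unlike in the Macrod2 bin above. In the 9 genes, reads per distinct position numbered 1.21 and 1.22 in Step2, 1.14 and 1.17 in Step1, and 1.25 and 1.39 in Con. Outside piled-up windows the whole libraries had 1.19 and 1.22 in Step2, 1.13 and 1.16 in Step1, and 1.24 and 1.37 in Con. Positions with 10 or more reads, 49 in all, held 736 of the 51003 reads of the 9 genes, or 1.44%. Most of the 51003 were not repeats: 9439 were reads beyond the first at their position in their library. The position with the most reads in each gene held 12 to 59 reads, all from 1 library, which was the second Con library for 7 of 9 genes. Each lay in an intron of the gene itself. That of Immp2l also lies inside the nested gene Lrrn3, whose exons were not looked up. No position was found in all 6 libraries. The strongest positions of Macrod2 (59 reads) and Ctnna3 (37 reads), both from the second Con library, are printed to show the DNA at which such reads began. Each is the plus strand of mm10, from chr2:140569691-140569760 for Macrod2 and from chr10:64948948-64949017 for Ctnna3, with the 50 bases from the read start in capitals.
Macrod2 position: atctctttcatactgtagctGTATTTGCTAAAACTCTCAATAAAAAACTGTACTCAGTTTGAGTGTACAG
Ctnna3 position: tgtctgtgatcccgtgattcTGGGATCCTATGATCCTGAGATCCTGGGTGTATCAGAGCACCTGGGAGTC

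Base composition went with density among long genes. Over the 567 genes longer than 300 kb, density (1 read per position and strand) and GC content had r = -0.352 (Spearman -0.314), a description over genes that share libraries and sequence. Among long genes within 1 percentage point of their own GC content, Wwox stood at the 12th percentile of 50, Immp2l at the 12th of 125 and Naaladl2 at the 6.49th of 77. Ctnna2 was highest, at the 81.8th percentile of 132, and the other 5 lay between the 48.8th and the 73.3rd.

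**Figure D4:**
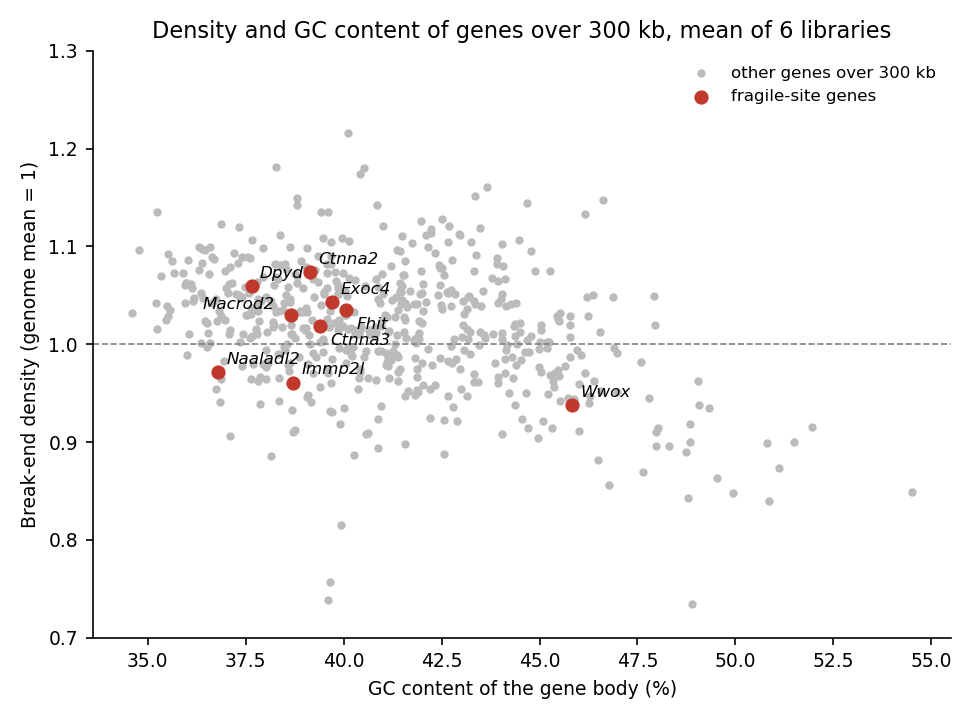
Break-end density (vertical axis, 1 read per position and strand, genome mean 1) against GC content in percent for 566 of the 567 genes over 300 kb, with the 9 genes named; 1 gene lies outside the axis. Wwox has 45.8% GC and a density of 0.937, and Ctnna2 has the highest of the 9, 1.07.

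Averaged over the 6 libraries, most of the genes had fewer break ends than both of their flanks, and this differed by group. In 6 of 9 (Wwox, Macrod2, Immp2l, Naaladl2, Dpyd and Exoc4) the gene body was below both 500-kb flanks, as it was in 46.7% of 557 genes over 300 kb. These 6 were also below both flanks in the Step2 means, as was Fhit, and in the Step1 means. In the Con means only Wwox and Macrod2 were. There Immp2l had 0.990 against 0.980 downstream, Dpyd 1.10 against 1.08 downstream, Exoc4 1.07 against 1.01 downstream, and Naaladl2 1.03 against 0.962 upstream. The long genes were not split by group. The median ratio of body to flanks was 0.926 in the 9 genes and 0.973 in the long genes. Wwox had the lowest ratio, 0.861, at the 2.87th percentile of the long genes. Its body had 0.937, against 1.07 in the upstream and 1.11 in the downstream flank. Averaged over the 6 libraries, Ctnna2 was the only one above both flanks, with 1.07 against 1.05 and 1.03. By group it was above both in Con only, where Ctnna3 was too, with 1.03 against 1.00 and 1.02. Ctnna2 lay below its upstream flank in Step2, with 1.07 against 1.09, and in Step1, with 1.04 against 1.08.

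**Figure D5:**
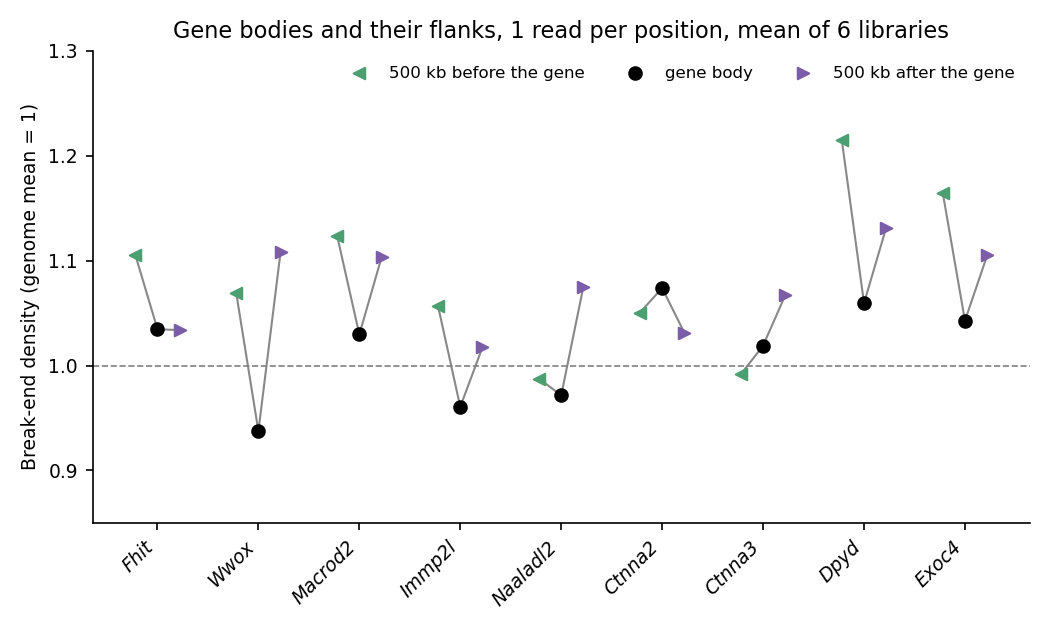
Break-end density (1 read per position and strand, genome mean 1) in the upstream 500-kb flank, the gene body and the downstream 500-kb flank of each of the 9 genes, each point the mean of 6 libraries. Wwox has 1.07, 0.937 and 1.11, and Ctnna2 has 1.05, 1.07 and 1.03.

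Break ends lay about evenly on both strands, with 49.8% (95% Wilson interval 49.3 to 50.3) of 41564 distinct positions on the sense strand. Fhit had 52.5% (51.3 to 53.8) on the sense strand, at the 94.1st percentile of 562 long genes with at least 1000 positions. Of those 562 genes, 21.7% had an interval that left out 50%, as had 4 of the 9. Ctnna3 had 51.4% (50.1 to 52.6), Wwox 48.0% (46.3 to 49.8) and Naaladl2 48.0% (46.6 to 49.5). Fhit was above 50% in all 6 libraries, at 52.4% and 52.5% in Step2, 51.5% and 53.6% in Step1, and 51.9% and 53.5% in Con. Naaladl2 was below 50% in all 6, the lowest being the Step2 libraries at 47.8% and 46.0%, with Con at 48.1% and 48.3%.

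Several of the genes carry another gene on the opposite strand inside an intron, and reads of nested gene and host cannot be told apart. These are mostly leucine-rich repeat membrane proteins of neurons: Flrt3 in Macrod2, Lrrn3 in Immp2l, Lrrtm1 in Ctnna2 and Lrrtm3 in Ctnna3. Lrrtm3 held 785 reads, 10.8% of those of Ctnna3. Lrrn3 held 5.74% of those of Immp2l, and Flrt3 and Lrrtm1 each held 1.32% of those of their host. By length, Lrrtm3 takes up 162 of the 1574 kb of Ctnna3, and Lrrn3 34.8 of the 931 kb of Immp2l. Flrt3 takes up 20.6 of the 1998 kb of Macrod2, and Lrrtm1 15.1 of the 1098 kb of Ctnna2.

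At gene starts, Fhit carried a peak of break ends in Con and Step1. Within 1 kb of its start, 42 distinct positions were found over all libraries, against 7.64 if its gene-body density held there. They numbered 3 and 0 in Step2, 8 and 8 in Step1, and 10 and 13 in Con, lowest in the Step2 libraries, which were also the shallowest. Density, which allows for depth, averaged 1.57 in Step2, 5.59 in Step1 and 8.83 in Con. Whether a lower value in Step2 is particular to Fhit is not shown, as no share over all gene starts is given. No test is given, since these counts are few and drew attention to the region. Of these positions 30 lay in the 200 bases before the start. Exoc4 had 18 against 7.72, Wwox 16 against 6.97, Ctnna3 13 against 7.52 and Macrod2 11 against 7.62, and the other 4 had 2 to 9.

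The 250 bases before the RefSeq start of Fhit (GRCm38.p6, chr14:11162036-11162285, minus strand), in which 32 distinct positions fell, are printed with CG in capitals, searched on both strands, which read the same.
Fhit promoter: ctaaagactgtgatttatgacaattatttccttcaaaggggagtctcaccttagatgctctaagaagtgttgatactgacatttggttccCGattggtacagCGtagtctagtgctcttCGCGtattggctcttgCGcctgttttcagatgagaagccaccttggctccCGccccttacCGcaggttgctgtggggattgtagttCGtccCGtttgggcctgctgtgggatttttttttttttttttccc
It holds 9 CG, against a median of 6 over 32851 RefSeq promoters of the same length, of which 40.3% hold at least as many. RefSeq promoters were matched for 7 of the 9 genes, all but Wwox and Naaladl2.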

How the data were processed

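The authors deposited 1 file of aligned reads per library. Per the labels' protocols, duplicates were removed with molecular identifiers, alignment to mm10 used Bowtie2, and SAMtools and bedtools converted the output; for their versions, the sources used here give none. Every deposited line gives the interval and strand of 1 read and its mapping quality score. From these files, 5′ ends were counted in gene bodies, 100-kb gene bins and gene starts. Library size was the number of reads outside 26 piled-up 10-kb windows, which hold over 20 times the median of nonzero windows; 0 of them lie in the 9 genes. A feature entered the fit with 10 or more reads in 2 or more libraries. The fit was limma 3.58.1 (voom, two-sided, Benjamini-Hochberg) in R 4.3.3, with 1 mean per group over all 6 libraries. Intervals of densities and shares are at the 95% level and cover counting error only. Alternatives changed scaling, filters, GC content, repeated reads and each library in turn. The procedure was tested on simulated data, in which the changed genes had larger fold changes than any of the 9 gene bodies. That test does not cover changes as small as theirs. The 9 genes, the further fragile-site genes and the tests were chosen with earlier results of these data known; some genes of the further list are not reported here. Named genes are the 9; among bins, those with the smallest p and those that 1 left-out library brought past the threshold; other names were chosen after their values were seen. Software was Python 3.11.15 with matplotlib 3.10.9, SciPy 1.17.1, pandas 2.3.3 and numpy 2.4.6.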

Additional observations from a re-analysis of the deposited data

How the results depend on the processing

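None of the 9 gene bodies was called under any of 18 alternatives in any comparison (lowest limma adjusted p = 0.198, for Naaladl2 in Step2 against Con). Their bins were called only without the first Con library, 0 to 2 over the left-out fits in Step1 against Con and 0 to 1 in Step2 against Con. How many of the 9 had a value below 0 did depend on the setting. It was 4 of 9 in Step2 against Con on the first sequencing run alone and 4 of 9 in Step1 against Con with GC trend removed and 1 read per position, a setting chosen after seeing the data. Leaving out 1 library gave 8 to 9 below 0 in Step2 against Con, 6 to 8 in Step1 against Con and 6 to 7 in Step2 against Step1. The share of reads in the 9 genes moved with the sequencing run. On the first run it was 0.448% in Step2, 0.447% in Step1 and 0.464% in Con. On the second it was 0.418% in Step2, 0.435% in Step1 and 0.448% in Con. With piled-up windows kept it was 0.414% in Step2, 0.418% in Step1 and 0.438% in Con. Leaving out 1 library gave 0.430% to 0.435% in Step2, 0.436% to 0.444% in Step1 and 0.451% to 0.459% in Con. Calls over all genes ran from 1 to 106 over the left-out fits in Step2 against Con, 2 to 148 in Step1 against Con and 2 to 8 in Step2 against Step1. Replicate differences correlated by -0.03 between Step2 and Con, -0.03 between Step1 and Con and 0.03 between Step2 and Step1 over 1723 genes. Each difference also carries counting error, so these values cannot tell whether the replicate numbers pair the libraries. With the replicate number as a block, 0 of 9 were called in each comparison, with 43, 38 and 11 calls over all genes in Step2 against Con, Step1 against Con and Step2 against Step1, against 13, 17 and 6 without it. The cause of these changes was not tested. Depth limits single bins and gene starts most, which held few reads per library. A fit over gene starts, added after seeing the data, is not reported, because regions could pass its count filter through their Step1 and Con reads alone.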
